A study of Mus musculus with 6 samples.

Results

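A set of 39 genes that sense, signal and repair DNA breaks was followed in germinal centre B cells with and without intact Basp1. The genes were taken by symbol, as a fixed list, from 23420 genes listed in each library, and all 39 were found. They hold 24 genes of homologous recombination and the Fanconi anaemia pathway, 7 of break sensing and checkpoint signalling, 6 of classical end joining, and the pair Xrcc1 and Lig3, which work in single-strand break repair and in alternative end joining. The cells were bead-purified and sorted from mouse spleen, 10 days after an injection of the hapten-carrier antigen NP-KLH. Mice of the KO group were BASP1 fl/fl hCD20TamCre+/- and mice of the WT group BASP1 +/+ hCD20TamCre+/-, so both carried a Cre recombinase that tamoxifen activates in B cells. Both received 1 mg tamoxifen on day 5, day 7 and day 9. Each group had 3 libraries, numbered 1 to 3, and the labels do not say that they came from separate mice. The p-values therefore measure only the spread between these libraries, which may be technical.

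Germinal centre B cells divide fast while they mutate and switch the class of their antibody genes, and DNA breaks arise in the course of this. Homologous recombination repairs a break by copying the sister chromatid and is used mainly in S and G2 phase, whereas end joining religates the ends at any time of the cycle and completes class switching. The Fanconi anaemia pathway removes crosslinks between DNA strands and hands the resulting breaks to recombination.

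The promoters of 3 genes are shown, 1 of them from end joining, because recombination genes are known as targets of the cell cycle factors E2F and NF-Y. Brca2 and Fancc are the members with an unadjusted p under 0.05 in the comparison below for which the RefSeq table (GRCm38.p6) had an entry, and Xrcc6 is the end joining gene with the smallest p. Each line gives the 250 bases before the transcription start of the first RefSeq entry of the gene, 5′ to 3′ on the gene's own strand, with matches in capitals. For Fancc and Xrcc6 this start lies inside the gene span given below, which begins at 63497278 (minus strand) and 81987835 (plus strand). Which start these cells use was not known. They lie at chr5:150522371-150522620 on the plus strand (Brca2), chr13:63431746-63431995 on the minus strand (Fancc) and chr15:82016119-82016368 on the plus strand (Xrcc6).
Brca2: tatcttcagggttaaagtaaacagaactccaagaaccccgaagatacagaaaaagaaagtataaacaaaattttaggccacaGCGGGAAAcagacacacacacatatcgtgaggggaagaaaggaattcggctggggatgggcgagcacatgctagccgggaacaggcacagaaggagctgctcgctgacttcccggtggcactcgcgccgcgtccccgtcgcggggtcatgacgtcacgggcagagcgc
Fancc: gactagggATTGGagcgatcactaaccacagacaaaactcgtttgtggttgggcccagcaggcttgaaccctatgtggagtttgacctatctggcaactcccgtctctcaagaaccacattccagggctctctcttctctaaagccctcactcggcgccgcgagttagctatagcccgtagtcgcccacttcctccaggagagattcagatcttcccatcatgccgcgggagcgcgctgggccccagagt
Xrcc6: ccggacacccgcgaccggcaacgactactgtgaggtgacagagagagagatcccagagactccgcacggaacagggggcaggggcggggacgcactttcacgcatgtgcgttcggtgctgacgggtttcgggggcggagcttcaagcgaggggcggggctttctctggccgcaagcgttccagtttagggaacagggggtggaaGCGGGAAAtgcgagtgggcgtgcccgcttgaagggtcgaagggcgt
The capitals in Brca2 and Xrcc6 are the E2F word TTTCCCGC read on the other strand, and those in Fancc are CCAAT, the core of NF-Y sites, also on the other strand. The E2F words searched on both strands were TTTCCCGC, TTTCGCGC, TTTGCCGC and TTTGGCGC, and CCAAT was searched on both strands as well. Of the 32 members with a promoter entry 5 held an E2F word (15.6%), against 4.30% of the 7656 tested genes with one, namely Bard1, Brca2, Chek2, Fancg and Xrcc6. CCAAT was found in 17 of the 32 (53.1%), against 41.6%. By arm, CCAAT stood in 12 of 20 recombination and Fanconi promoters and in 1 of 5 classical end joining promoters. An E2F word stood in 3 of the 20 (15%) and in 1 of the 5 (20%), and 5 promoters are too few to set the arms apart. A match is a description of these letters, not a bound site.

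All values below are log2 CPM (read counts scaled to a common library total) as deposited, already scaled so that all libraries share nearly one distribution. Listed values summed to between 997617 and 1000513 CPM per library, and depth cannot be read from these values. For every gene the WT and KO values of one replicate number add up to the same sum within 0.001, so a gene holds only a mean and 3 paired differences, and a high WT library faces a low KO library by construction. KO and WT libraries do not overlap exactly when all 3 pairs differ in the same direction. Basp1 itself, a myristoylated membrane protein and transcriptional co-repressor, stood at 5.49, 5.89 and 5.53 log2 CPM in WT and 3.27, 2.86 and 3.23 in KO libraries 1 to 3. Markers of germinal centre B cells were present: the 11 listed genes summed to 7503 to 7613 CPM in WT and 7220 to 7328 CPM in KO libraries. Of the 11, 9 had a negative difference and 4 were lower in KO without overlap (36.4%, against 12.5% of all genes). None of the 11 passed 5% FDR. Of T cell markers, Lck was the only one of 7 found that reached a mean of 1 CPM, and Cd3e lay at the floor value in all 6 libraries. The 9 myeloid markers summed to between 2.18 and 6.06 CPM. Other lists stood higher: the 6 plasma cell markers, mostly Igj, summed to 2104 to 2315 CPM in WT and 1973 to 2159 in KO. The 7 naive and memory B cell markers found, mostly Fcer2a and Cr2, summed to 492 to 552 CPM in WT and 530 to 596 in KO. In bulk RNA, fewer cells of a type and less RNA per cell cannot be told apart.

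Levels of the 39 genes spanned a wide range in these cells. Divided by the length of the principal transcript, the mean level over the 6 libraries was highest for Xrcc1, the scaffold of single-strand break repair, at 97.4 CPM per kb. Xrcc6, the Ku70 subunit of the ring that binds broken ends, followed at 36.4 and Rad54l, the motor that helps strand invasion, at 28.0 CPM per kb. All 3 genes of the MRN complex, the first sensor of breaks, were among the 7 highest, with 22.8 for Nbn, 19.3 for Rad50 and 16.9 for Mre11a. The lowest levels per kb were 0.614 for Fancf, an adaptor of the Fanconi core complex, 1.61 for Bard1, the partner of BRCA1, and 2.12 for Atr, the kinase that answers to stalled forks. Lengths come from the annotation, and the transcript used in these cells was not known.

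**Figure D1:**
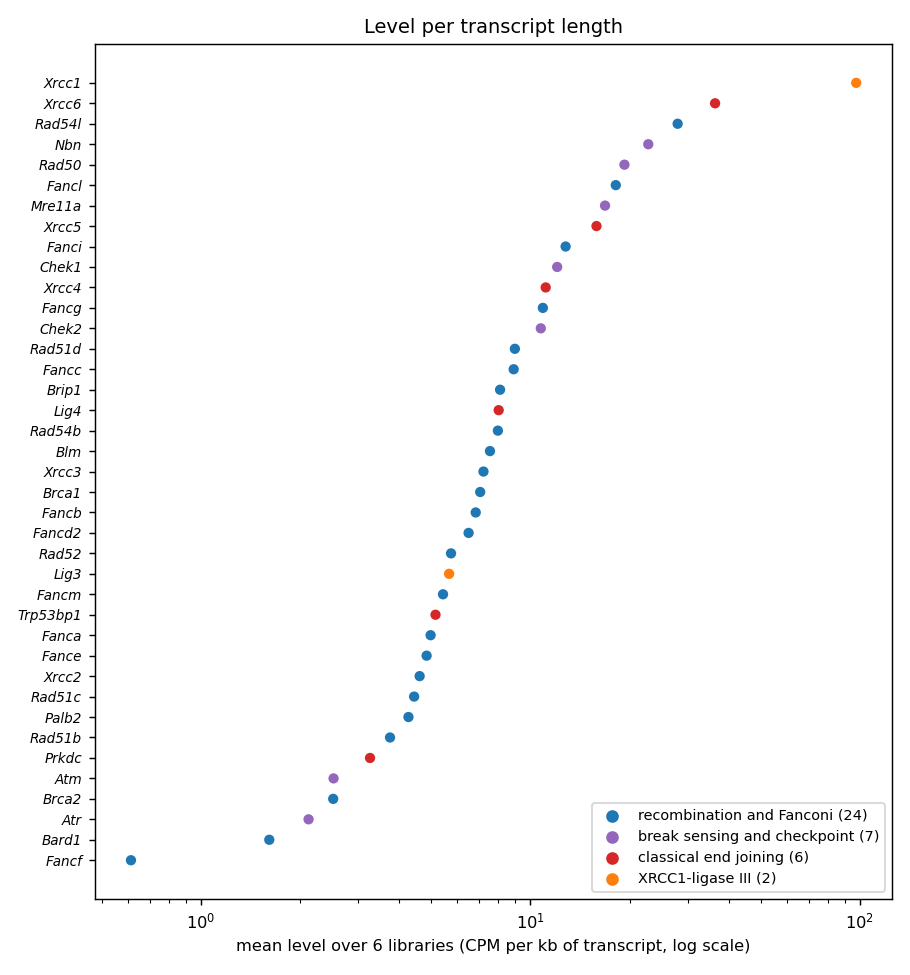
Mean level of each of the 39 genes over the 6 libraries, in CPM per kb of principal transcript (log scale), coloured by arm. Xrcc1 stands highest at 97.4 CPM per kb and Fancf lowest at 0.614, and recombination and end joining genes are interspersed.

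The comparison of KO with WT asked whether these transcripts differ when Basp1 is deleted during the response. None of the 39 genes passed 5% FDR, in either direction (limma with the replicate number as a block, Benjamini-Hochberg over 10133 genes), where 0.266% of all tested genes did. An unadjusted p under 0.05 was reached by 4 members (10.3%), against 8.82% of all genes. They were Fancc and Xrcc2 higher in KO (4.16% of all genes), and Brca2 and Rad50 lower in KO (4.66%). With no replicate block 9 members had such a p, 8 higher and 1 lower in KO, and Brca2 and Rad50 were not among them. In that fit the genes past 5% FDR rose from 27 to 142 over all genes (99 higher, 43 lower). The share of all genes with an unadjusted p under 0.05 was not worked out for it, so the 9 members have no background. Fold changes, KO minus WT on the log2 scale, ran from -0.23 (Brca2) to 0.44 (Fancf). The median was 0.027 over the members and 0.0037 over all genes, and 18 of 39 members (46.2%) were negative, against 48.7%. The 95% limma intervals left out any change of 1.5-fold or more for 36 of the 39 genes, and of 1.3-fold or more for 25. Of all 10133 tested genes, 8410 and 6462 met these limits, so the counts do not mark the members as unusually steady. The exceptions at 1.5-fold were Fancf (up to 2.24-fold), Xrcc2 (1.53-fold) and Bard1 (1.51-fold). Each interval is for the mean of the 3 paired differences, and most of its width is taken from other genes. A single pair can lie outside it, as pair 3 of Bard1 did (0.733, upper bound 0.60).

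**Figure D2:**
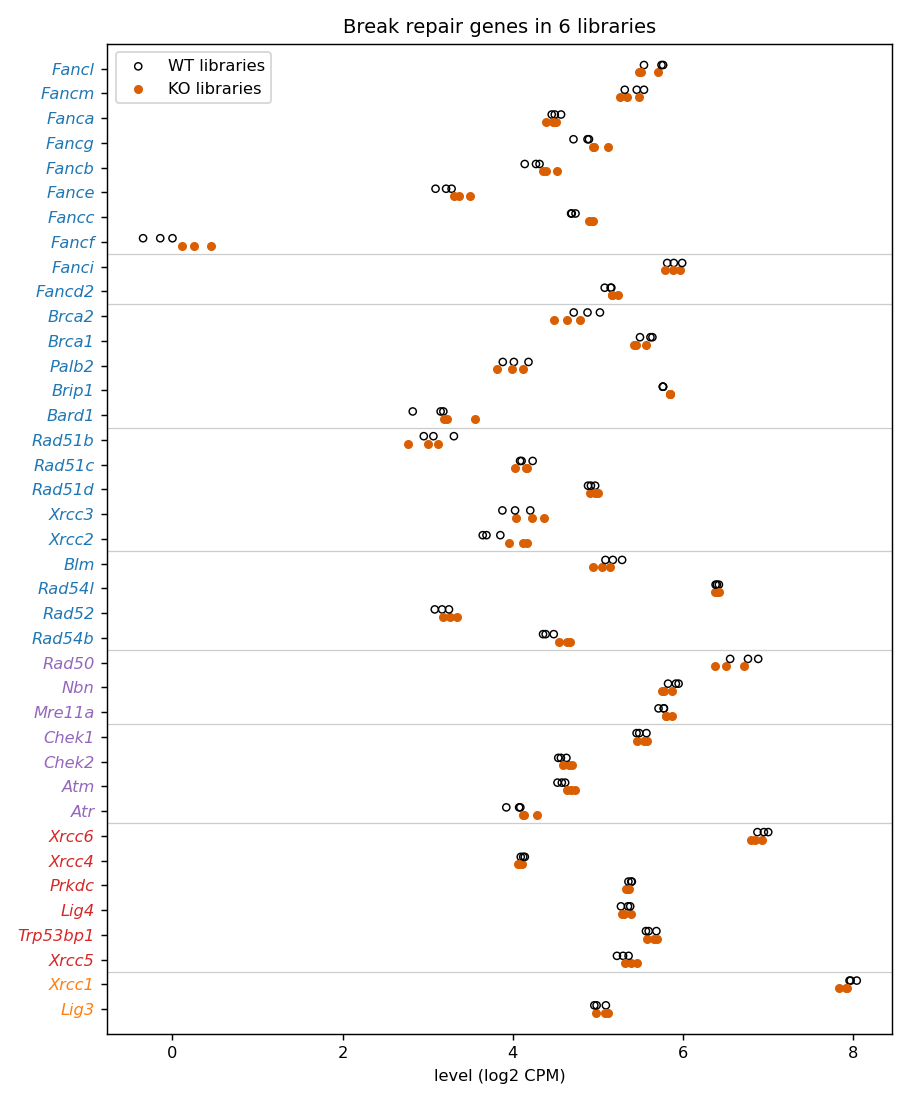
Level of each gene in log2 CPM, with 3 WT libraries as open and 3 KO libraries as filled circles, ordered by role. Groups stand apart without overlap for 14 genes (35.9%, against 27.7% of all tested genes). Xrcc1 is the one of them with KO below WT (2.56% of members, against 12.5%). The 6 classical end joining genes overlap throughout, a count too small to set them apart from these shares.

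The Fanconi core complex is the ubiquitin ligase that marks crosslinked DNA. Of its 8 genes 5 were higher in every KO library than in every WT library: Fancb, Fancc, Fance, Fancf and Fancg. Of all tested genes 15.2% were higher in KO in this way. The median difference over the 8 was 0.178. Fancc, whose product bridges the complex to FANCE, had 4.70, 4.69 and 4.74 log2 CPM in WT and 4.94, 4.95 and 4.89 in KO (chromosome 13, 63285043 to 63497278, minus strand). The KO libraries lay above all WT libraries by a mean of 0.22 ± 0.06 (SD, n = 3 pairs; 95% interval 0.0047 to 0.43; unadjusted p = 0.0453, limma adjusted p = 0.540). Of its annotated exon bases 16.4% are shared with the antisense gene Gm16133, and whether reads were counted by strand was not stated. Fancf had the widest spread, with -0.35, 0.00 and -0.14 in WT and 0.46, 0.11 and 0.25 in KO, a difference of 0.44 ± 0.35 at about 1 CPM (limma adjusted p = 0.815). Fancb, Fance and Fancg, all subunits of the core, differed by 0.18 ± 0.18, 0.19 ± 0.19 and 0.18 ± 0.20, with most of each in pair 3. The other 3 genes overlapped between groups: Fancl, the catalytic ligase subunit, at -0.12 ± 0.25, Fancm, the DNA translocase that anchors the complex, at -0.08 ± 0.23, and Fanca at -0.05 ± 0.11.

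The complex acts on FANCI and FANCD2, which form the clamp that is ubiquitinated on damaged DNA. Fancd2 (chromosome 6, 113531682 to 113597017) had 5.08, 5.15 and 5.16 log2 CPM in WT and 5.24, 5.17 and 5.17 in KO, a difference of 0.06 ± 0.09 (limma adjusted p = 0.925). The KO libraries lay above the WT libraries, by 0.005 in pair 3. Fanci differed by -0.02 ± 0.18, with groups that overlapped.

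The mediators around BRCA1 and BRCA2 prepare resected DNA for strand exchange, and their differences had either sign. Brca2, the tumour suppressor at the centre of this step, had 4.88, 5.03 and 4.72 log2 CPM in WT and 4.64, 4.49 and 4.80 in KO (chromosome 5, 150522630 to 150570329, plus strand). The difference was -0.23 ± 0.31 (95% interval -0.46 to -0.0092; unadjusted p = 0.0416, limma adjusted p = 0.529). It was carried by pair 2 (-0.536) and pair 1 (-0.244), while pair 3 was higher in KO (0.079), so that the groups overlapped, and the difference was -0.08 without pair 2 and -0.39 without pair 3. Palb2, which links BRCA1 to BRCA2, had a like pattern over the pairs (-0.027, -0.371 and 0.233), and Brca1 differed by -0.11 ± 0.16. The helicase gene Brip1 was the most even of the 39: 5.77 in all WT libraries and 5.85 in all KO libraries, a difference of 0.09 ± 0.0025 (SD, n = 3 pairs) whose interval still ran from -0.09 to 0.26, since the test takes most of its error from other genes. Bard1 differed by 0.27 ± 0.40, of which pair 3 gave 0.733 and the others 0.077 and 0.013.

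The genes Rad51b, Rad51c, Rad51d, Xrcc2 and Xrcc3 encode related proteins that assist strand exchange. Among these 5, Xrcc2 differed most and had the smallest p of all 39 members. It had 3.85, 3.65 and 3.69 log2 CPM in WT and 3.96, 4.16 and 4.12 in KO (chromosome 5, 25689812 to 25705825, minus strand). All KO libraries lay above all WT libraries, by 0.35 ± 0.22 or from 13.3 to 16.9 CPM (95% interval 0.08 to 0.61; unadjusted p = 0.0116, limma adjusted p = 0.336). The other 4 overlapped between groups. Xrcc3 differed by 0.18 ± 0.33, Rad51d by 0.03 ± 0.08, Rad51c by -0.02 ± 0.16 and Rad51b by -0.15 ± 0.36. RAD51D and XRCC2 sit in 1 complex with RAD51B and RAD51C, and their transcripts had differences of either sign.

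Among the genes for strand annealing, exchange and the dissolving of joint molecules, Rad54b had the smallest p. This relative of RAD54 had 4.39, 4.48 and 4.36 log2 CPM in WT and 4.64, 4.55 and 4.67 in KO, with no overlap, a difference of 0.21 ± 0.13 (unadjusted p = 0.0689, limma adjusted p = 0.627; chromosome 4, 11558922 to 11615805). Of its annotated exon bases 35.8% also belong to Fsbp, a gene on the same strand, so its value is uncertain. Rad54l had the smallest difference of all members, -0.0017 ± 0.04, with an interval of -0.17 to 0.16. Rad52, the annealing protein, differed by 0.10 ± 0.17 and Blm, the helicase of Bloom syndrome, by -0.14 ± 0.20.

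Break sensing starts with the MRN complex. Rad50, its long coiled-coil ATPase, had 6.77, 6.89 and 6.56 log2 CPM in WT and 6.50, 6.38 and 6.71 in KO (chromosome 11, 53649519 to 53707319, minus strand). It was lower in KO in pairs 1 and 2 (-0.262 and -0.503) and higher in pair 3 (0.158), a mean of -0.20 ± 0.33 (95% interval -0.40 to -0.0043; unadjusted p = 0.0456, limma adjusted p = 0.543). Without pair 3 it was the single member that passed, at -0.38 (limma adjusted p = 0.0266), and without pair 2 it was -0.05 (adjusted p = 1). Nbn, the subunit that recruits ATM, differed by -0.10 ± 0.13 with the same signs in the 3 pairs, and Mre11a, the nuclease, by 0.07 ± 0.07, with KO above WT in every library. The 4 checkpoint kinases all had positive differences. Atr had 4.08, 3.92 and 4.09 log2 CPM in WT and 4.13, 4.29 and 4.12 in KO, which is 0.15 ± 0.18 (limma adjusted p = 0.816; chromosome 9, 95857597 to 95951781). Atm, the kinase of double-strand breaks, differed by 0.11 ± 0.09, also with no overlap, and its target Chek2 by 0.07 ± 0.10. Chek1, the target of ATR, differed by 0.02 ± 0.12.

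Classical end joining had mean differences between -0.08 and 0.09, and all 6 intervals stayed within 1.23-fold. In 0 of its 6 genes did the groups separate, where 27.7% of all tested genes separate, and 0 had an unadjusted p under 0.05, against 8.82%. Counts of 0 among 6 genes do not set the arm apart from these shares. Ku is the ring-shaped dimer that binds the ends. Xrcc6, its Ku70 subunit, had 7.00, 6.88 and 6.95 log2 CPM in WT and 6.80, 6.93 and 6.86 in KO, a difference of -0.08 ± 0.13 (limma adjusted p = 0.849; chromosome 15, 81987835 to 82040085). Xrcc5, the Ku80 subunit, went the other way, with 5.23, 5.30 and 5.36 in WT and 5.46, 5.39 and 5.32 in KO, a difference of 0.09 ± 0.14 (chromosome 1, 72307421 to 72394952). In each of these genes 1 pair had the opposite sign to the mean.

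Prkdc, the catalytic kinase subunit that Ku recruits, had 5.39, 5.40 and 5.36 log2 CPM in WT and 5.34, 5.33 and 5.37 in KO, a difference of -0.04 ± 0.04 (chromosome 16, 15637866 to 15842235). Xrcc4, the ligase cofactor, had 4.14, 4.09 and 4.12 in WT and 4.06, 4.10 and 4.08 in KO, a difference of -0.04 ± 0.05 (chromosome 13, 89774027 to 90089608). Lig4, the ligase of this pathway, had 5.27, 5.36 and 5.38 in WT and 5.39, 5.31 and 5.28 in KO, a difference of -0.008 ± 0.11 (chromosome 8, 9969049 to 9977686). In all 3 the WT and KO libraries overlapped. Trp53bp1, which shields ends from resection and favours end joining, had 5.69, 5.57 and 5.60 in WT and 5.57, 5.70 and 5.67 in KO, a difference of 0.03 ± 0.13 (chromosome 2, 121193281 to 121271407). Limma adjusted p-values of these 4 genes lay between 0.955 and 0.993. Xrcc1, at 8.05, 7.97 and 7.96 in WT and 7.84, 7.91 and 7.93 in KO, was the one member with every KO library below every WT library, by -0.10 ± 0.09 (limma adjusted p = 0.776; chromosome 7, 24546289 to 24573440). Its partner Lig3, the ligase, differed by 0.05 ± 0.14.

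**Figure D3:**
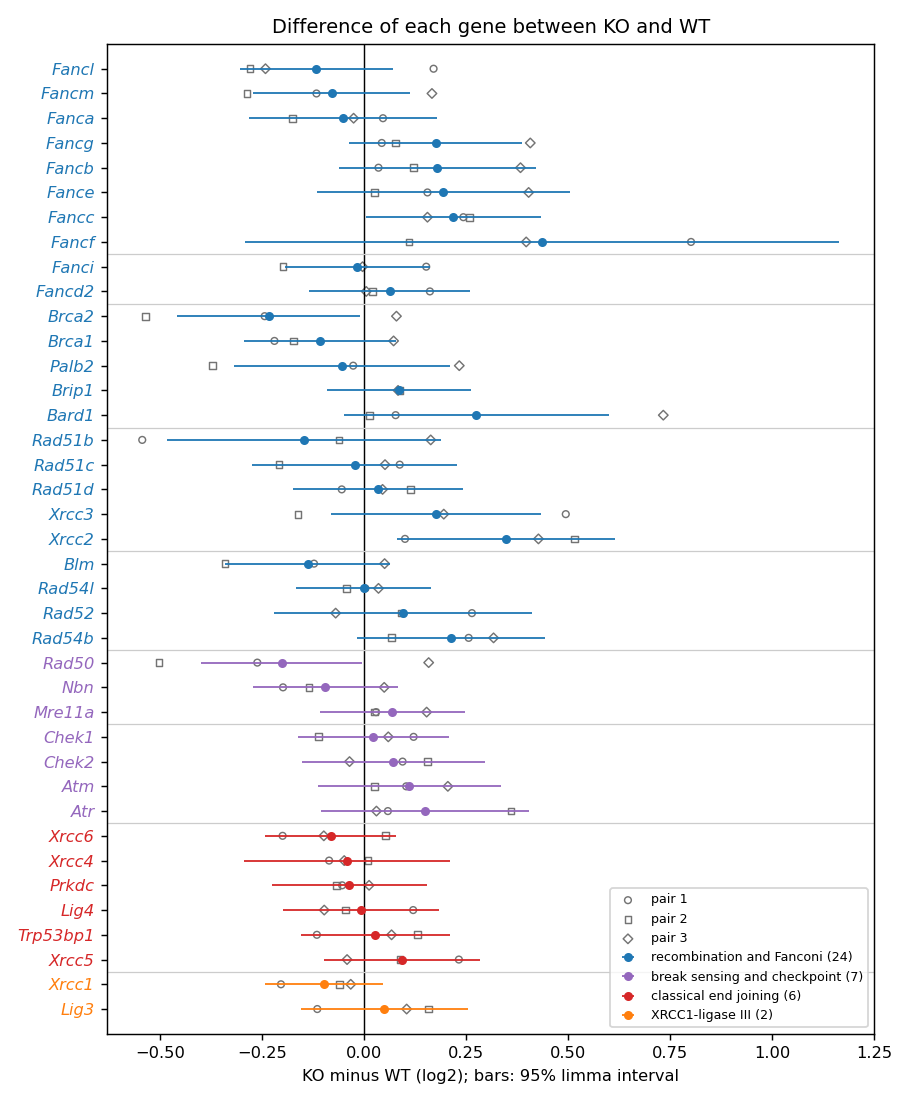
KO minus WT on the log2 scale for each gene. Open symbols are the 3 pairs and filled circles their mean with the 95% limma interval, coloured by arm. The interval of 4 genes leaves out 0 (Fancc, Xrcc2, Brca2 and Rad50), and the end joining means lie between -0.08 and 0.09.

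Counted over all 39 genes, KO and WT libraries did not overlap for 14 (35.9%), where 27.7% of all tested genes had no overlap. KO was the higher group in 13 of the 14 (33.3% of the members, against 15.2% of all genes) and the lower in 1 (2.56%, against 12.5%). Of the 13, 10 belong to recombination and the Fanconi pathway and 3 to break sensing and checkpoint. Their mean differences were between 0.06 and 0.44, and none passed 5% FDR. The wider pathway did not share this tilt: of 84 tested genes on a list of other recombination, end joining and checkpoint genes, KO was higher without overlap in 8 (9.52%) and lower in 15 (17.9%). No p is attached to these counts, since the members were chosen with results of these libraries known.

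Recombination was set against end joining by the median difference of each arm in each pair. For the 24 recombination and Fanconi genes the medians were 0.0815, -0.015 and 0.119 in pairs 1 to 3. For the 6 classical end joining genes they were -0.07, 0.031 and -0.0455. The gap between arms, recombination minus end joining, was therefore 0.152, -0.046 and 0.165, a mean of 0.09 with an SD of 0.118 over the 3 pairs. Taken from the mean differences of the genes, the arm medians were 0.048 and -0.022. Pair 2 had the opposite sign, and the mean gap was smaller than the spread between pairs. Leaving out pair 1, 2 or 3 gave 0.0592, 0.158 and 0.0528. Member differences scattered more within recombination (SD over the 24 genes 0.171, range -0.23 to 0.44) than within end joining (SD over the 6 genes 0.0614). The recombination genes were also less abundant, with a median of 25 CPM against 40.9, and the median half-width of their intervals was 0.227 against 0.191. The difference in scatter was not tested.

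**Figure D4:**
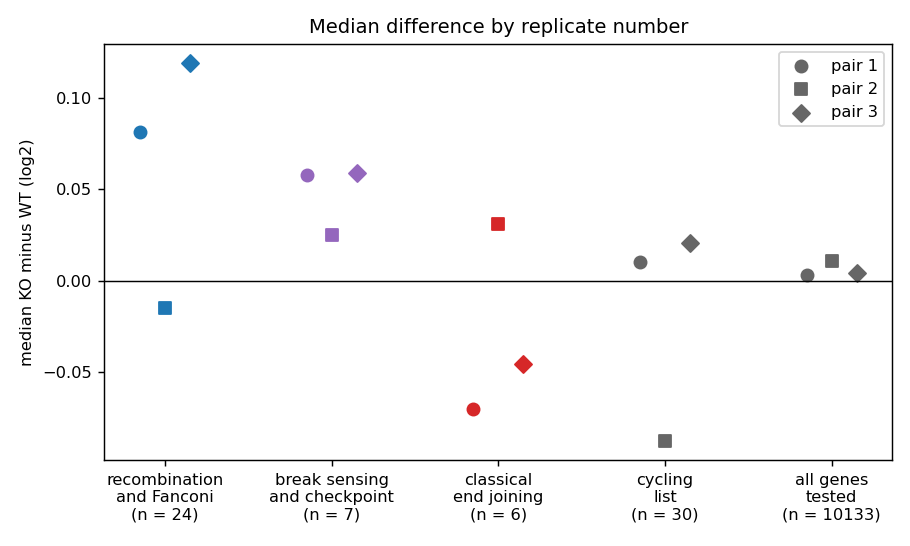
Median KO minus WT difference (log2) in pairs 1 to 3 for 3 arms, a list of 30 genes of cycling cells and all 10133 tested genes. Pair 2 lies below the other pairs for recombination (-0.015) and for the cycling list (-0.0875) and above them for end joining (0.031).

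Pair 2 also differed from the others in genes outside the set. The 30 genes of cycling cells had medians of 0.01, -0.0875 and 0.0205 in pairs 1 to 3, none had an unadjusted p under 0.05, and summed levels were 11357 to 11864 CPM in WT and 11153 to 11623 in KO. Mki67 differed by -0.53 ± 0.48, Top2a by -0.09 ± 0.03 and Pcna by -0.12 ± 0.11, with limma adjusted p-values from 0.648 to 0.782. These 3 were all negative, but the list as a whole was not. Of its 30 genes 16 were positive (53.3%, against 51.3% of all tested genes) and 14 negative, and the median difference was 0.0025. The 3 tested nuclear RNAs Malat1, Neat1 and Kcnq1ot1 had medians of -0.502, -1.11 and 0.376. They were listed as a rough guide to RNA quality, a link that was not checked in these libraries. The order of these medians, with pair 2 lowest and pair 3 highest, was that of Brca2 and Rad50. It was found in 12 of the 39 members (30.8%) and in 17.5% of all tested genes. A negative difference in pairs 1 and 2 with a positive one in pair 3 was found in 9 members (23.1%, against 14.5% of all genes): Fancm, Brca1, Palb2, Brca2, Rad51b, Blm, Rad50, Nbn and Prkdc. The part of RNA quality and of cycling in these values was not tested.

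Transcript length moved with the paired differences as well. Across the 10074 tested genes with a length, Spearman's rho between length and the difference was -0.276 in pair 1, -0.0844 in pair 2 and 0.265 in pair 3. Across the 39 members, which are not independent replicates, it was -0.308, -0.186 and 0.0526. The members had a median transcript of 3426 bases, against 2914 for all. A further limma fit removed the length trend of each pair. Its length was that of all annotated exons of a gene merged, not of the principal transcript used for rho. There Brca2 stood at -0.21 (unadjusted p = 0.0654) and Rad50 at -0.20 (unadjusted p = 0.0727), while Fancc (0.22, unadjusted p = 0.0346) and Xrcc2 (0.34, unadjusted p = 0.012) kept an unadjusted p under 0.05 in limma. None of the 39 passed 5% FDR in that fit.

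**Figure D5:**
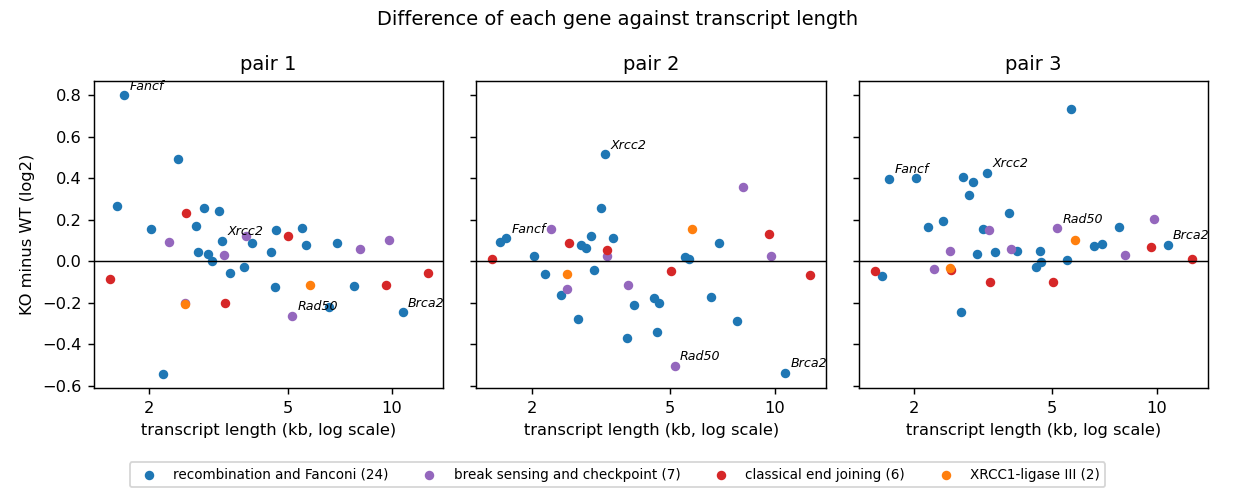
KO minus WT difference (log2) of each of the 39 genes against the length of its principal transcript (kb, log scale) in pairs 1 to 3, coloured by arm. Brca2 and Rad50 lie below 0 in pairs 1 and 2 and above 0 in pair 3, and Fancf and Xrcc2 lie above 0 in every pair.

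Other genes of the same pathways, from a list of 86 found in the files, gave no call either. Of 84 tested, 0 passed 5% FDR in either direction, where 0.266% of all tested genes did. An unadjusted p under 0.05 in limma was reached by 9 (10.7%, against 8.82% of all genes), 2 higher and 7 lower in KO. Of all genes 4.16% were higher and 4.66% lower with such a p. Among 44 recombination and Fanconi genes, 27 were negative (61.4%, against 48.7% of all genes) and the median was -0.02. The smallest p there belonged to Bre (now Babam2), a scaffold of the BRCA1-A complex (0.27 ± 0.36, limma adjusted p = 0.356), then to the helicases Recql4 (-0.40 ± 0.40, adjusted p = 0.444) and Helq (-0.23 ± 0.37, adjusted p = 0.579). Among 20 end joining genes the median was 0.03. Paxip1, an adaptor at damaged chromatin, differed by -0.22 ± 0.13 (limma adjusted p = 0.331), Dclre1c, the nuclease Artemis, by -0.39 ± 0.24 (adjusted p = 0.395), and Rif1, an effector of 53BP1, by -0.20 ± 0.28 (adjusted p = 0.551). Among 20 checkpoint genes the median was -0.03. Tipin and Clspn, both of the fork protection machinery, differed by -0.23 ± 0.19 (limma adjusted p = 0.194) and -0.32 ± 0.36 (adjusted p = 0.292), and the CDK inhibitor gene Cdkn1a by 0.41 ± 0.62 (adjusted p = 0.473). Tipin passed without pair 1 and Bre without pair 3.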

How the data were processed

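RNA was sequenced from 3 KO and 3 WT libraries. The submitters' processing notes name mm10, STAR 2.6.1a, limma, featureCounts with Subread 2.0.1, Trim Galore 0.6.5 and FastQC 0.11.7, without roles or settings. The values deposited by the authors are log2 CPM, 1 per gene and library; the common distribution, the equal pair sums and the unit were read from the values. The 10133 genes averaging 1 CPM or more, with more than 1 distinct value, entered limma 3.58.1 in R 4.3.3: genotype plus replicate number, variance trend, robust empirical Bayes, two-sided, Benjamini-Hochberg at 5% FDR. The number stays as a block because its differences were already removed, which uses 2 degrees of freedom. Each gene has 2 residual and a median of 81.2 prior degrees of freedom. The smallest p of an exact sign-flip test over 3 pairs is 0.25. The fit was also run on simulated data with normal noise and no length trend, which does not test it under the trends seen here. Positions, overlaps and lengths are from GENCODE M21 (GRCm38, called mm10). Members, lists, roles and motifs were chosen with earlier results of these data known. Per-library values are given for members with an unadjusted p under 0.05, the smallest p per role, the highest and lowest level per kb, and all end joining genes. Brip1 and Bard1 were added after their values were seen.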

Additional observations from a re-analysis of the deposited data

How the results depend on the processing

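None of the 39 genes was called in any of the 7 other fits on the 6 libraries. When 1 pair was left out, 0 to 1 were called, the 1 being Rad50 without pair 3. The fit with no variance trend called 0 of 10133 genes, so it could call no member, and the other fits called few genes. A count of 0 among 39 is therefore little support for an absence of change. Over all genes the count moved from 27 to 142 with no replicate block (99 higher, 43 lower), 0 with no variance trend, 12 with non-robust moderation, 95 with no filter on low values, 10 with the length trend removed, and 11 to 136 when 1 pair was left out. With no replicate block 0 of the 39 were called, but 9 instead of 4 had an unadjusted p under 0.05, a share not worked out over all genes. This fit counts degrees of freedom that the deposited values no longer hold. The equal pair sums fix the correlation between same-numbered libraries, so the pairing cannot be checked from the values. Of the other pathway genes 0 to 1 were called when 1 pair was left out. The gap between the recombination and end joining arms, 0.09 as reported, ran from 0.0528 to 0.158 over alternatives averaged over pairs. With the length trend removed it was 0.0504, but this is a gap between medians of the mean differences. Its counterpart in the main fit is the gap between 0.048 (recombination) and -0.022 (end joining), not 0.09. Of 149 alternative values of 15 named genes, 145 kept direction and side, and 3 reversed when 1 pair was left out: Lig4 ranged from -0.072 to 0.037 and Trp53bp1 from -0.0245 to 0.099. A change of block, variance trend, moderation or filter cannot move a fold change in this balanced design. Such fits could only change the side, so the 145 do not measure how stable the directions are. The cause of the shifts between settings was not tested. Without depths, counting error cannot be separated from the spread between pairs.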
